A study of Mus musculus with 42 samples.

Results

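This section compares denervated with immobilized tibialis anterior (TA) muscle of WT mice. TA, a muscle of the lower hindlimb built almost entirely of fast fibers, stops working in both models, but immobilization leaves its motor nerve in place and denervation removes it. The comparison rests on 8 of the 42 RNAseq libraries of the series, 4 of WT Denervated and 4 of WT Immobilized muscle, which were chosen by their labels and belong to the second of 2 sequencing sets (set 2, with 20 libraries). All mice compared were C57BL/6J males of 4 months with the genotype wild type. The spread behind every p-value was estimated from all 20 libraries of set 2, which hold 4 basal WT libraries and 8 of Sesn1 KO mice (4 basal and 4 immobilized) besides the 8 compared. For denervation, 5 mm of the right sciatic nerve were cut out. For immobilization, the right hindlimb was held with rigid plastic sticks under an adhesive bandage, and the joint angle is not given in the sources used here. Muscles of both groups were taken after 3 days. No sham-operated group is among the libraries used here, so the loss of the nerve and the surgery cannot be told apart. The 4 basal WT libraries of set 2, from mice that underwent neither procedure, do not enter the contrast, and their levels are given beside it as a reference.

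In an innervated fiber, the nerve terminal releases acetylcholine onto receptors that are packed under it, and the electrical activity that follows keeps receptor genes silent in the nuclei elsewhere along the fiber. When the nerve is lost, this repression ends: nuclei along the whole fiber transcribe receptor subunits, among them the fetal γ subunit, together with the myogenic factors that drive them. Disuse with an intact nerve leaves the synapse occupied and some electrical activity in place. Both states also switch on the program of muscle atrophy, in which the ubiquitin ligases Trim63 (MuRF1) and Fbxo32 (atrogin-1) are the best known genes.

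Values are normalized counts per gene on a linear scale, as the authors deposited them. Library sums were at most 811541 in denervated muscle (median 790956) and at least 964609 in immobilized muscle (median 988798). The denervated mean was 79% of the immobilized mean, and the groups did not overlap (two-sided exact permutation test, p = 0.0286, the smallest that 70 splits of 4 against 4 allow). The 10 most abundant genes held 17.8% to 19.7% of the sum in denervated, 21.7% to 22.5% in immobilized and 25.6% to 26.2% in basal libraries. Replicate libraries correlated at 0.983 to 0.991 in denervated and 0.974 to 0.982 in immobilized muscle on the log2 scale. The number of reads behind a library is unknown, so no counting error is given, and p-values measure the spread between these libraries. Markers of skeletal muscle fibers were abundant in every library, with a summed level of 62045 to 85239 in denervated, 130097 to 139806 in immobilized and 152852 to 172273 in basal libraries. Of the 10 fiber markers, 9 (90%) were called lower in denervated than in immobilized muscle and none higher, against 18.4% and 20.5% of all genes tested. With libraries scaled to the same sum 8 were lower, and with quantile normalization 2. In bulk muscle, fewer cells of a type and less RNA per cell cannot be told apart.

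Of 13629 genes tested, 5297 (38.9%) differed between denervated and immobilized muscle. Of these, 2789 (20.5% of the genes tested) were higher and 2508 (18.4%) lower in denervated muscle. Calls required an adjusted p under 0.05 (limma with Benjamini-Hochberg adjustment) and a log2 fold change of 0.25 or more in either direction. All fold changes are denervated minus immobilized on the log2(value + 1) scale, which understates the change of low genes. With that limit raised to 1, 396 genes were higher and 537 lower. In 2441 of the 2789 genes called higher and 2044 of the 2508 called lower at 0.25, the groups did not overlap. Lack of overlap was therefore common among called genes. The median over all genes was -0.02. When each library was instead scaled to the same sum, this median rose by 0.276, and 5500 genes were called higher and 1183 lower. Counts of a list are to be read against the same counts over all genes tested. These were 20.5% higher and 18.4% lower as reported, and 5500 and 1183 of the 13629 genes with this scaling. Where the direction of a named gene turned with this scaling, its value is given beside it. Among the named genes, the largest increases were those of Myog, Chrnd and Aif1l and the largest decreases those of Mustn1, Csrp3 and Perm1.

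**Figure D1:**
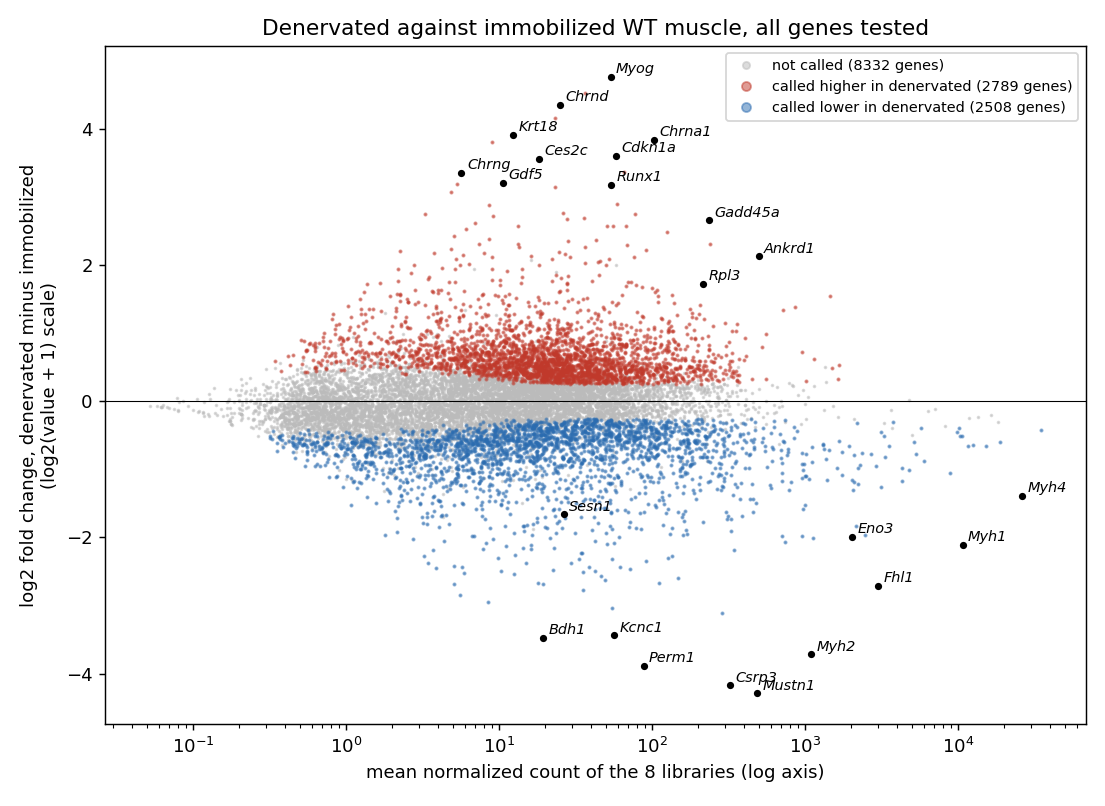
Log2 fold change of denervated minus immobilized WT muscle (vertical axis) against the mean normalized count of the 8 libraries (horizontal log axis) for the 13629 genes tested. The 2789 genes called higher are red, the 2508 called lower blue and the others gray, and labelled black points include Myog at 4.76 and Mustn1 at -4.29.

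The acetylcholine receptor of muscle is a ring of subunits: α (Chrna1), β (Chrnb1) and δ (Chrnd) in every receptor, with γ (Chrng) in the fetal and ε (Chrne) in the adult form. Of these 5 genes, 4 rose in denervated against immobilized muscle, none fell, and the median log2 fold change was 3.35. The promoters of 4 of them are shown because E-boxes, the letters CANNTG, are the known binding sites of the myogenic factors that rose with them. The windows hold the 250 bases before the RefSeq start on build GRCm38.p6, written 5′ to 3′ on the strand of the gene, with each E-box in capitals. Chrna1 is read from chr2:73580339-73580588 on the minus strand, Chrng from chr1:87205561-87205810 on the plus strand, Chrnb1 from chr11:69795938-69796187 on the minus strand and Chrne from chr11:70619195-70619444 on the minus strand. GENCODE M21 starts Chrng earlier, at chr1:87204657, so the Chrng window lies inside the gene as placed there. Its E-box count therefore depends on the RefSeq start.
Chrna1: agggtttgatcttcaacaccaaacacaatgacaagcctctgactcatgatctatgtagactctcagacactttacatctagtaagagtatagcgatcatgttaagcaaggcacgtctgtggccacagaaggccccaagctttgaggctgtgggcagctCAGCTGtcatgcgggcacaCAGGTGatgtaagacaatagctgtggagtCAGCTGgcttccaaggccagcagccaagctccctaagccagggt
Chrng: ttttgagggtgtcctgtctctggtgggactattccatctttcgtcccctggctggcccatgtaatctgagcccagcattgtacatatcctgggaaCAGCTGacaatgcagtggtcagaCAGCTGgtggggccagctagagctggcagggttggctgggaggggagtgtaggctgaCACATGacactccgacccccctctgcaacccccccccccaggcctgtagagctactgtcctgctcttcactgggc
Chrnb1: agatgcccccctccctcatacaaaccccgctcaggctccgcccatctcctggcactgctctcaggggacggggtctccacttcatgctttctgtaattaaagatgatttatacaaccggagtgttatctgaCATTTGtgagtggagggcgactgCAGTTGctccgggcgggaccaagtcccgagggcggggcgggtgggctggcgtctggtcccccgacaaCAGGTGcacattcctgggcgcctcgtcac
Chrne: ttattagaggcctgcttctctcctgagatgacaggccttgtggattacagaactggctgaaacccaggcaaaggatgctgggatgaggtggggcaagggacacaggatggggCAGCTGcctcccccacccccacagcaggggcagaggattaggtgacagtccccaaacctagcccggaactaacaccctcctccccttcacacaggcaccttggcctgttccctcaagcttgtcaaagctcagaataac

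The CANNTG letters, which read alike on both strands and were counted with overlapping matches included, occurred 3 times in the Chrna1, Chrng and Chrnb1 windows and 1 time in that of Chrne. Of all 32851 promoters in the RefSeq table, 66.2% held CANNTG in a window of this length and 12.2% held it 3 or more times. The form CAGCTG occurred 2 times in Chrna1 and 2 times in Chrng, as in 1.26% of all promoters (2 or more), 1 time in Chrne, as in 13% (1 or more), and it did not occur in Chrnb1. A match describes the letters of these windows and was not tested as a binding site. Chrnd was not matched in this table.

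Chrna1 stood at 230.3, 250.4, 161 and 131 normalized counts in the 4 denervated libraries and at 13.03, 12.3, 14.4 and 9.58 in the 4 immobilized ones. The groups lay far apart, and 3 of the 4 immobilized libraries lay above the basal range of 5.44 to 9.596. Its log2 fold change was 3.83 (standard error 0.25, adjusted p = 3.53e-10), 15.7 times by the means. Chrnd stood at 57.004, 58.7, 47.02 and 31.6 in denervated and 1.503, 1.92, 1.09 and 1.05 in immobilized libraries, a log2 fold change of 4.35 (adjusted p = 7.67e-10). Its immobilized libraries lay within the basal range of 0.659 to 2.09. Chrng, the fetal subunit, stood at 14.9, 13.9, 9.22 and 6.81 in denervated muscle and at 0.196, 0.109, 0.121 and 0.177 in immobilized muscle, where every value was under 1 and overlapped the basal ones (0.0429 to 0.14). It rose by 3.35 on the log2 scale (standard error 0.18, adjusted p = 2.79e-11), and a fold of such low values is not given.

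Chrnb1 was above the basal range in every library of both models. It stood at 109, 107, 94.8 and 98.9 in denervated, 59.6, 48.4, 57.7 and 59.8 in immobilized and 24.98, 22.3, 19.4 and 27.5 in basal libraries. The groups did not overlap, and the rise from immobilized to denervated was 0.85 on the log2 scale (standard error 0.10, adjusted p = 1.11e-06). Chrne, the adult subunit that is transcribed under the nerve terminal, did not pass the test. Its values were 2.93, 3.32, 2.35 and 1.14 in denervated and 5.84, 5.53, 3.68 and 0.74 in immobilized libraries, overlapping each other and all under the basal 7.36, 8.26, 6.26 and 14.8 (log2 fold change -0.40, adjusted p = 0.378). Without immobilized replicate 4, its lowest library, Chrne passed the test as lower (log2 fold change -0.84, adjusted p = 0.0199).

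Around the receptor, Musk, Lrp4, Dok7, Ncam1 and Rapsn were called higher and Ache, Ufsp1 and Lamb2 lower. MuSK is the receptor kinase of the postsynaptic membrane, Lrp4 its partner that binds agrin from the nerve, and Dok7 its cytoplasmic activator. Musk stood at 77.2, 95.4, 77.1 and 70.6 in denervated, 17.6, 17.1, 17.6 and 25.6 in immobilized and 5.39, 4.39, 5.65 and 7.16 in basal libraries. The 3 groups did not overlap, and the difference between the treatments was 2.00 (standard error 0.18, adjusted p = 3.57e-08). Lrp4 moved to opposite sides of basal muscle, with 30.003, 32.3, 24.4 and 21.7 in denervated and 5.302, 4.15, 4.76 and 7.51 in immobilized against 11.9, 13.2, 11.001 and 7.89 in basal libraries (log2 fold change 2.14, adjusted p = 1.38e-07). Ncam1, an adhesion molecule that spreads over the fiber surface after denervation, stood at 25.2, 21.03, 16.4 and 11.1 in denervated and 4.78, 3.83, 4.88 and 2.73 in immobilized libraries, again with no overlap (1.91, adjusted p = 4.4e-06). Dok7 rose by 0.51 (adjusted p = 0.0155) with overlapping groups, and its call was lost without denervated replicate 1 or immobilized replicate 4 (adjusted p = 0.0593 and 0.0715). Rapsn, the scaffold that clusters the receptors, rose by 0.50 and was chosen after its value was seen, as the last of the 5 called higher.

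Ache, the acetylcholinesterase that ends transmission in the cleft, went the other way. It stood at 3.695, 5.17, 2.96 and 1.46 in denervated, 14.3, 17.8, 15.2 and 9.401 in immobilized and 32.9, 33.3, 38.7 and 61.6 in basal libraries, which form 3 separate steps (-1.86, standard error 0.26, adjusted p = 1.09e-05). Ufsp1, a protease gene that neighbors Ache, fell by 1.01 on the log2 scale (adjusted p = 0.00188), and Lamb2, the laminin of the synaptic basement membrane, fell by 0.55 (adjusted p = 0.0002), a call that was lost with libraries scaled to the same sum (adjusted p = 0.132). In the whole list of 18 junction genes tested, 5 were called higher and 3 lower, with a median of -0.01 that became 0.32 with that scaling. The list as a whole thus lay near the shares of all genes, and 10 of its members did not pass the test.

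**Figure D2:**
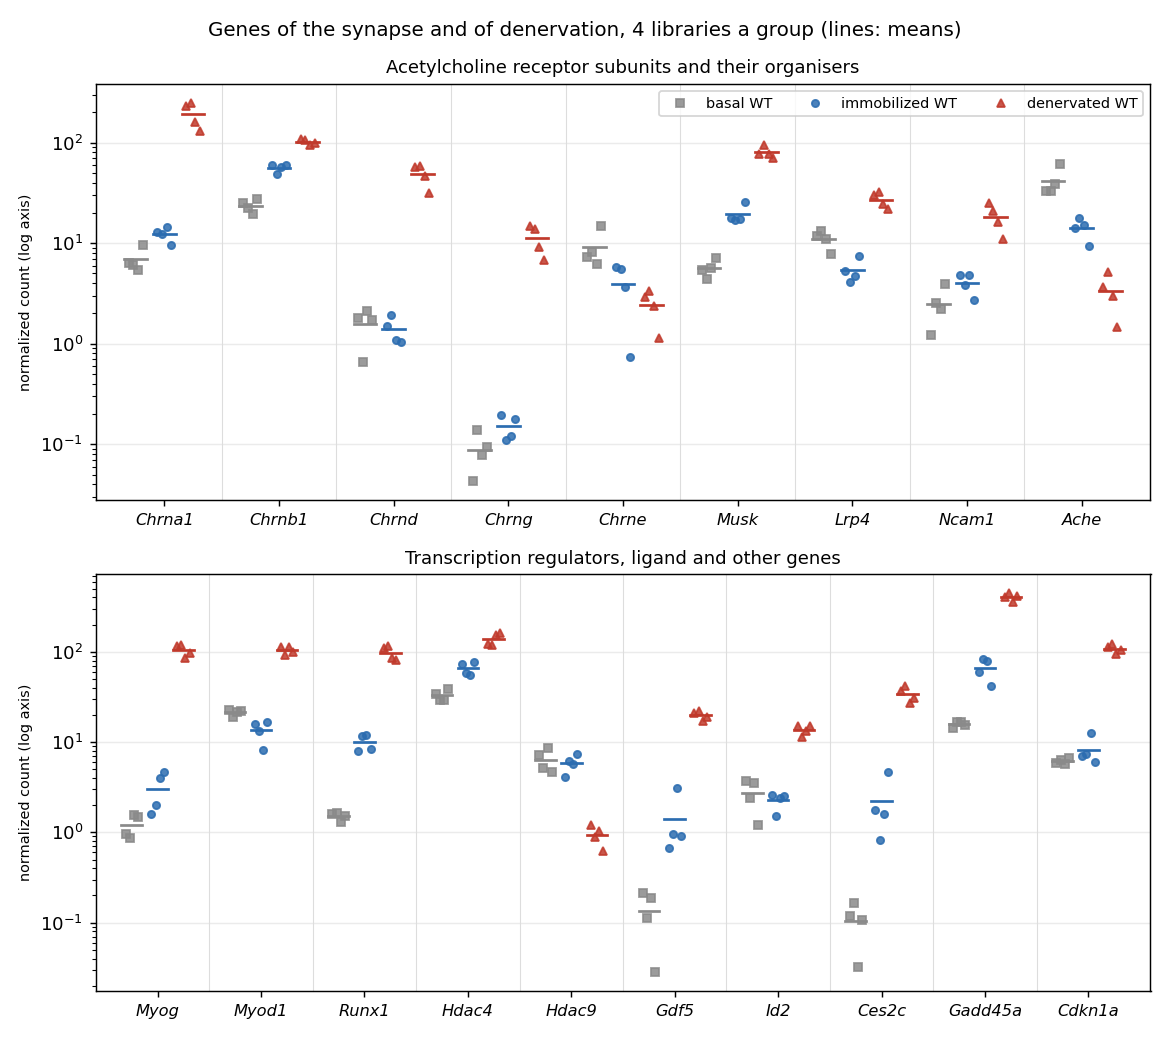
Normalized counts (vertical log axis) of synaptic genes (upper panel) and of transcription regulators, Gdf5 and other genes (lower panel) in each of the 4 basal (gray squares), 4 immobilized (blue circles) and 4 denervated (red triangles) WT libraries of set 2, with lines at the means. Chrna1, Chrnd and Chrng left the basal range in the denervated libraries and overlapped it in the immobilized ones, whereas Chrnb1, Musk, Runx1, Hdac4 and Gadd45a formed 3 separate steps.

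Among regulators of transcription, the myogenic factors Myog and Myod1 rose, Myf5 did not pass the test (0.28, adjusted p = 0.257) except with libraries scaled to the same sum (0.48, adjusted p = 0.0396), and class IIa deacetylases differed in direction. Myogenin (Myog), the myogenic factor that activates receptor genes after denervation, had the largest log2 fold change of all genes tested. It stood at 116, 119, 85.4 and 95.98 in denervated libraries, 1.58, 1.996, 4.02 and 4.63 in immobilized ones and 0.969, 0.872, 1.55 and 1.49 in basal ones (log2 fold change 4.76, standard error 0.24, adjusted p = 1.2e-11). Immobilized muscle was above the basal range, but the denervated mean was 34.1 times the immobilized one. Myod1, the related factor of satellite cells and fast fibers, stood at 112, 91.996, 113 and 98.8 in denervated and 16.01, 13.3, 8.14 and 16.6 in immobilized libraries, on opposite sides of the basal range of 19.2 to 22.8 (2.90, adjusted p = 5.45e-10). Runx1, a transcription factor that protects denervated fibers from wasting, stood at 109.8, 116, 85.1 and 82.1 in denervated, 8.003, 11.6, 12.1 and 8.44 in immobilized and 1.597, 1.66, 1.305 and 1.52 in basal libraries. The immobilized libraries lay between the others, and the difference between the treatments was 3.17 (standard error 0.25, adjusted p = 2.97e-09). Tead4, a partner of muscle promoters of the TEA family, rose by 1.29 (adjusted p = 6.28e-05).

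Class IIa histone deacetylases carry nerve activity to chromatin by repressing MEF2 targets. Hdac4, chosen after its values were seen, stood at 124, 118, 152 and 160.2 in denervated, 74.2, 58.8, 55.6 and 76.7 in immobilized and 33.9, 29.6, 28.9 and 39.2 in basal libraries, with no overlap (1.05, adjusted p = 1.42e-06). Its relatives fell: Hdac9 stood at 1.204, 0.898, 1.03 and 0.625 in denervated against 4.09, 6.12, 5.75 and 7.45 in immobilized libraries (-1.81, adjusted p = 3.58e-07), and Hdac5 fell by 1.12 on the log2 scale (adjusted p = 1.86e-07). Both overlapped their basal ranges after immobilization. Maf, a large Maf factor of fast IIB fibers, stood at 28.8, 25.4, 36.7 and 42.8 in denervated and 86.95, 133, 138 and 138 in immobilized libraries (-1.86, adjusted p = 2.8e-08). Nfatc2, a factor activated by calcineurin, fell by 0.80 (adjusted p = 0.00233). Of the 24 regulators tested, 7 (29.2%) were called higher and 8 (33.3%) lower, against 20.5% and 18.4% of all genes. Their median was -0.33, or -0.01 with libraries scaled to the same sum. The number lower was 5 without immobilized replicate 2.

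Gdf5, a ligand of the BMP family known to limit atrophy of denervated muscle, stood at 21.3, 21.8, 17.3 and 18.8 in denervated and at 0.666, 0.957, 3.12 and 0.917 in immobilized libraries. Every immobilized library was above every basal one (0.0283 to 0.213) and far under every denervated one (log2 fold change 3.20, standard error 0.22, adjusted p = 7.01e-10). Id2, an inhibitor of myogenic factors and a target of BMP signals, stood at 15.3, 11.3, 13.3 and 15.2 in denervated libraries and at 2.61, 1.53, 2.405 and 2.55 in immobilized ones, which overlapped the basal range (2.18, adjusted p = 9.09e-08). The type I receptor gene Tgfbr1 stood at 112, 115, 109 and 116 in denervated and 31.5, 28.1, 36.6 and 35.7 in immobilized libraries, and the signal carrier Smad3 rose by 1.29 (adjusted p = 9.49e-05). On the lower side were the follistatin-like Fstl1 (-1.44), the ligand Bmp5 (-0.99) and the receptors Acvr1b (-0.87) and Acvr1 (-0.79). Of the 33 members of the BMP, GDF5 and myostatin list tested, 8 (24.2%) were called higher and 6 (18.2%) lower (median -0.05). The list as a whole thus lay near the 20.5% and 18.4% of all genes. With libraries scaled to the same sum, 14 were higher and 4 lower (median 0.28), beside 5500 and 1183 of all 13629 genes.

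Stress and growth arrest genes differed in both directions, with the largest changes upward. Gadd45a, which is induced by Hdac4 in denervated muscle, stood at 403, 445, 361 and 416 in denervated, 59.5, 82.6, 79.05 and 41.5 in immobilized and 14.2, 16.6, 16.5 and 15.4 in basal libraries (2.66, standard error 0.22, adjusted p = 8.42e-09). Cdkn1a, the cell cycle inhibitor p21, stood at 114, 121, 93.6 and 105 in denervated and 6.96, 7.29, 12.7 and 6.05 in immobilized libraries, the latter reaching into the basal range of 5.75 to 6.68 (3.60, adjusted p = 5.45e-10). The p53 target Plk2 rose by 1.63 (adjusted p = 4.62e-07). The relatives of Gadd45a moved the opposite way, Gadd45b by -1.05 (adjusted p = 0.00142) and Gadd45g by -0.97 (adjusted p = 0.0346), and the call of Gadd45g was lost without denervated replicate 1, 2 or 3 or immobilized replicate 1, 2 or 3 (adjusted p 0.0543 to 0.142). In the list of p53 and GADD45 genes, 2 were lower with libraries scaled to the same sum. As reported, 5 of 17 (29.4%) were called higher and 5 (29.4%) lower, against 20.5% and 18.4% of all genes. The others called lower were Sesn1, Ccng1 (-0.55) and Trp53inp2 (-0.33), and the others called higher Sesn3 and Bax (0.79). The call of Ccng1 was lost with libraries scaled to the same sum (adjusted p = 0.0902), and that of Trp53inp2 (adjusted p = 0.0456) without denervated replicate 1 or 2 or immobilized replicate 1, 2 or 4 (adjusted p 0.0758 to 0.17), and its log2 fold change turned to 0.0106 with that scaling. Without denervated replicate 1 or 2 or immobilized replicate 1 or 2, the number lower was 3.

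Several further genes were switched on in denervated muscle from immobilized levels near or under 5 normalized counts. Ces2c, a carboxylesterase, stood at 36.9, 42.1, 27.05 and 30.5 in denervated libraries, at 1.75, 0.823, 1.61 and 4.703 in immobilized ones and under 1 in every basal one (3.56, standard error 0.26, adjusted p = 1.57e-09). Krt18, a keratin of simple epithelia, stood at 28.6, 31.3, 20.2 and 16.3 in denervated and at 0.846, 0.16, 0.703 and 0.909 in immobilized libraries (3.91, adjusted p = 4.66e-09). Aif1l, an actin-binding protein, stood at 51.9, 49.6, 41.3 and 36.5 against 1.06, 1.496, 1.65 and 2.09 (4.15), and the immobilized values overlapped the basal ones. Nrcam, a neuronal adhesion molecule, stood at 12.97, 12.5, 10.9 and 5.43 in denervated libraries and under 1 in every immobilized and basal one (3.18, adjusted p = 7.67e-10). Plekhh1 rose by 3.80 and Rap1gap2, which switches off the GTPase Rap1, by 3.15, and in both the immobilized and basal libraries overlapped. The 5 genes that mark the comparison are placed on GRCm38 as follows in GENCODE M21: Chrng (ENSMUSG00000026253) at chr1:87204657-87212694, Gdf5 (ENSMUSG00000038259) at chr2:155941023-155945367, Ces2c (ENSMUSG00000061825) at chr8:104847068-104854483, Runx1 (ENSMUSG00000022952) at chr16:92601466-92826149 and Myog (ENSMUSG00000026459) at chr1:134289989-134292548.

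The excitable membrane and the calcium release apparatus were mostly lower in denervated muscle. Of 20 sodium, potassium and chloride channel and pump genes, 4 (20%) were called higher and 13 (65%) lower, against 20.5% and 18.4% of all genes. Their median was -0.77, or -0.43 with libraries scaled to the same sum. Kcnc1, the potassium channel Kv3.1 of fast repolarization, stood at 9.35, 7.57, 9.96 and 8.197 in denervated and 101, 109, 96.9 and 109.8 in immobilized libraries, against 140.5, 188, 152 and 197 in basal ones (-3.43, standard error 0.15, adjusted p = 1.29e-12). Immobilized libraries lay between the others, much closer to the basal ones. Atp1b1, a β subunit of the sodium pump, fell (-1.87, adjusted p = 2.18e-09), and so did Atp1b4 (-2.37, adjusted p = 1.74e-06). Kcng4, a modifier of potassium channels, had already fallen in immobilized muscle and stood at 1.87, 1.09, 2.36 and 2.61 in denervated, 9.57, 9.88, 6.45 and 19.3 in immobilized and 78.1, 103, 77.1 and 102 in basal libraries. Kcnn3, the SK3 channel known from denervated muscle as the target of apamin, stood at 50.2, 61.9, 46.6 and 37.5 in denervated and 7.103, 7.18, 7.44 and 5.43 in immobilized libraries (2.67, adjusted p = 8.42e-09). Kcnq5 rose by 1.10. Kcnma1 rose by 0.53 with overlapping groups, and its call was lost without denervated replicate 1, 2 or 3 or immobilized replicate 1 or 3 (adjusted p 0.0571 to 0.156).

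Of 19 genes of excitation-contraction coupling, 3 (15.8%) were called higher and 12 (63.2%) lower (median -0.74), against 20.5% and 18.4% of all genes. With libraries scaled to the same sum 5 were higher and 10 lower (median -0.40), beside 5500 and 1183 of all 13629 genes. With quantile normalization 4 were higher and 9 lower (median -0.32). The junctophilins Jph1 and Jph2, which tether the T-tubule to the sarcoplasmic reticulum, fell by 1.31 and 1.22 on the log2 scale. Trdn (triadin) fell by 1.28 and Hrc, a calcium-binding protein of the reticulum, by 1.38. Hrc stood at 169.6, 133, 234 and 227 in denervated and 485, 551, 417 and 504 in immobilized libraries. The 3 that rose were Pln, Cacnb1 and Cacng1. Pln (phospholamban), the brake on the calcium pump of slow and heart muscle, stood at 21.8, 14.4, 15.01 and 12.6 in denervated libraries and at 1.17, 1.296, 1.66 and 0.939 in immobilized ones, which overlapped the basal range (2.89, adjusted p = 1.05e-09). Cacnb1, a subunit of the T-tubule calcium channel, rose by 1.03 and Cacng1, another subunit, by 0.62.

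In the contractile apparatus, most fast isoforms were lower in denervated muscle, slow isoforms leaned the same way, and embryonic isoforms were among the few that rose. Of the 14 fast isoforms 12 (85.7%) were called lower and none higher, against 18.4% and 20.5% of all genes. Their median was -0.96, or -0.62 with libraries scaled to the same sum, which left 12 lower, beside 1183 of all 13629 genes. With quantile normalization, which forces the libraries to the same distribution, 6 were lower and 2 higher. The myosin heavy chains show the pattern. Myh2, the IIA myosin, stood at 242, 143, 125 and 115 normalized counts in denervated, 2249, 1263, 2166 and 2447 in immobilized and 1032, 1381, 867 and 548 in basal libraries. Immobilized libraries ranged from basal levels upward and every denervated library was lower than any other (-3.71, standard error 0.41, adjusted p = 3.72e-07). Myh1, the IIX myosin, stood at 3618, 3429, 4939 and 4179 in denervated and 18144, 13233, 18253 and 20124 in immobilized libraries, against 9575 to 15212 in basal ones (-2.11, adjusted p = 6.84e-08). Myh4, the IIB myosin that dominates TA, stood at 10824, 14666, 17338 and 15861 against 39752, 41192, 38362 and 32751 (-1.39, adjusted p = 8.3e-06). These genes are close paralogs, and how the reads they share were assigned rests on the RSEM model of the authors.

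Of 7 embryonic and cardiac isoforms, 3 (42.9%) were called higher and 1 (14.3%) lower (median 0.31), against 20.5% and 18.4% of all genes. The embryonic myosin Myh3 was 1 of the 3. It stood at 43.97, 26.1, 18.97 and 6.36 in denervated and 2.44, 2.84, 4.22 and 3.93 in immobilized libraries (2.26, standard error 0.45, adjusted p = 0.000383). Mybph, a binding protein of developing and stressed myofibrils, stood at 167, 222, 96.2 and 54.4 against 22.9, 4.68, 18.7 and 36.05 (2.75, adjusted p = 0.00111), and the atrial and fetal light chain Myl4 rose by 1.14. Of 10 slow isoforms 5 (50%) were called lower and 1 (10%) higher, against 18.4% and 20.5% of all genes. The slow light chain Myl3 stood at 15.5, 9.56, 9.99 and 9.77 in denervated and 111, 73.4, 102 and 109 in immobilized libraries (-3.04, adjusted p = 1.05e-06). Casq2, the calcium store protein of slow and heart muscle, fell by 2.63, Myl2 by 2.52 and Myoz2 by 2.10 on the log2 scale. These 3 had been above the basal range in every immobilized library. Atp2a2, the slow calcium pump, was the 1 that rose (0.70, adjusted p = 0.0017). Myh7, the slow myosin, and Actn3, the fast α-actinin, did not pass the test, with 3.000, 1.498, 1.195 and 2.05 against 2.23, 4.09, 3.27 and 5.87 for Myh7 and 4164, 5663, 4772 and 4744 against 5267, 5078, 4894 and 3957 for Actn3. Myh7 passed it as lower when the spread was estimated from the 8 libraries alone (-0.71, adjusted p = 0.0432), and Actn3 as higher with quantile normalization (0.63, adjusted p = 0.0082).

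**Figure D3:**
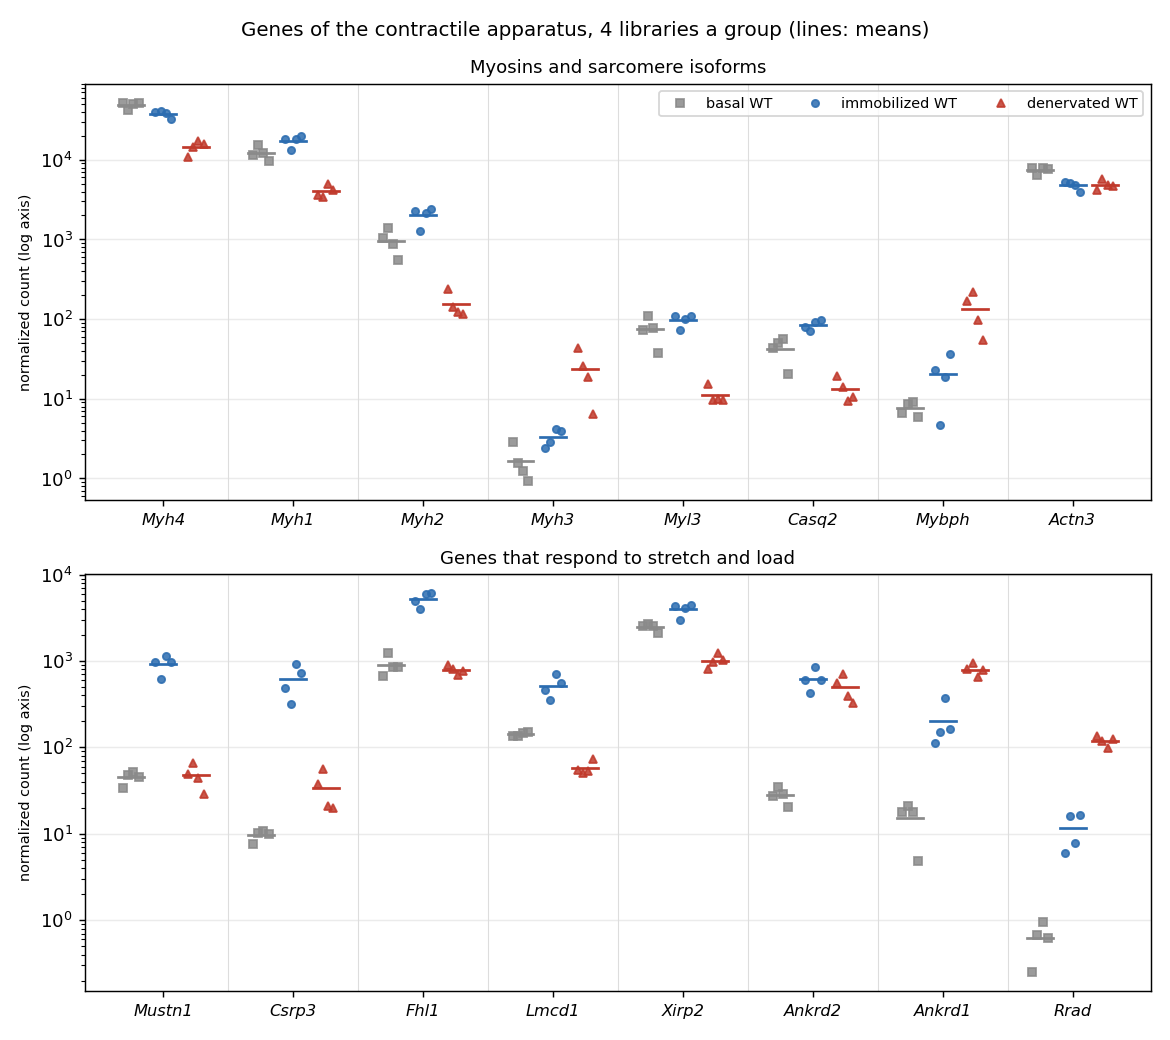
Normalized counts (vertical log axis) of myosins and other sarcomere genes (upper panel) and of genes that respond to load (lower panel) in each of the 4 basal (gray squares), 4 immobilized (blue circles) and 4 denervated (red triangles) WT libraries of set 2, with lines at the means. Mustn1, Csrp3, Fhl1 and Lmcd1 peaked in immobilized muscle, Ankrd1 and Rrad were highest in denervated muscle, and Ankrd2 was high in both.

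Genes that are known to respond to stretch and load differed in both directions, some of them high in immobilized muscle alone. Mustn1, a small nuclear protein of growing and loaded muscle and bone, stood at 49.7, 65.5, 44.9 and 29.2 in denervated, 973, 626, 1146 and 969.9 in immobilized and 33.6, 47.9, 52.2 and 45.7 in basal libraries. It was high in immobilized muscle alone, 19.6 times the denervated mean (-4.29, standard error 0.25, adjusted p = 8.35e-11), and denervated and basal libraries overlapped. Csrp3, the LIM protein of the Z-disc that senses stretch, stood at 37.4, 55.7, 20.9 and 20.1 in denervated, 493, 315, 932 and 719 in immobilized and 7.56, 10.2, 10.9 and 10.1 in basal libraries (-4.17, adjusted p = 7.02e-08). Fhl1, a LIM protein that promotes muscle mass, stood at 904, 817, 689 and 769 against 5004, 3956, 5922 and 6066 (-2.71), and its denervated libraries overlapped the basal ones. Lmcd1, another LIM protein and a cofactor of calcineurin signals, stood at 54.4, 50.4, 53.5 and 73.1 in denervated and 461, 353, 704 and 554 in immobilized libraries, on opposite sides of the basal 137, 136, 146 and 149.7 (-3.11, adjusted p = 2.27e-08). Xirp2, a protein of the myotendinous junction and of fiber repair, showed the same placement around its basal level (-1.97, adjusted p = 2.57e-07).

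The muscle ankyrin repeat genes did otherwise. Ankrd1 (CARP) stood at 813, 945, 647 and 777 in denervated, 113, 152, 372 and 164 in immobilized and 17.998, 20.9, 17.9 and 4.82 in basal libraries, with the denervated highest (2.12, standard error 0.54, adjusted p = 0.00358). Ankrd2, its stretch-induced relative, was far above basal muscle in both models and did not pass the test between them, with 549, 714, 394 and 327 in denervated and 595, 425, 843 and 606 in immobilized libraries (-0.34, adjusted p = 0.355), a difference whose sign turned with libraries scaled to the same sum (0.0026). Rrad, a small GTPase that restrains calcium channels, stood at 136, 118, 99.7 and 125 in denervated and 6.03, 16.3, 7.88 and 16.4 in immobilized libraries, and under 1 in every basal one (3.36, standard error 0.53, adjusted p = 3.48e-05). In all, 2 (16.7%) of the 12 genes in this list were called higher and 6 (50%) lower, against 20.5% and 18.4% of all genes. The median was -0.98, or -0.65 with libraries scaled to the same sum, which gave the same counts.

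Genes of energy metabolism were mostly lower in denervated muscle. Of 78 subunits of oxidative phosphorylation, 76 were called lower and none higher, against 18.4% of all genes. The median was -0.61, and the subunits called moved in the same direction. With libraries scaled to the same sum, 44 were lower and none higher (median -0.27). Cox7a1, the muscle form of a cytochrome oxidase subunit, stood at 83.4, 81.1, 90.6 and 102 in denervated and 216, 186, 177 and 167 in immobilized libraries (-1.06, adjusted p = 7.66e-06). Ndufb10, Cox5b and Ndufb2 followed with -0.96, -0.92 and -0.85. The groups did not overlap in these 4 genes, as in 2044 of the 2508 genes called lower. Of 12 regulators of this program (Perm1, the PGC-1 and ERR families and partners), 5 (41.7%) were called lower and 1 (8.33%) higher (median -0.33). Of all genes, 18.4% were lower and 20.5% higher. With libraries scaled to the same sum, 4 were lower and 4 higher (median -0.03), beside 1183 and 5500 of all 13629 genes. Perm1, a muscle-specific partner of the estrogen-related receptors, stood at 9.16, 14.5, 9.55 and 8.74 in denervated, 158, 187, 152 and 165 in immobilized and 364, 370.3, 328 and 326 in basal libraries. It formed 3 separate steps and had the smallest adjusted p of all genes tested (-3.88, standard error 0.12, adjusted p = 5.26e-15). Ppargc1a (PGC-1α), the coactivator of mitochondrial biogenesis, stood at 11.4, 8.21, 11.2 and 12.3 against 28.4, 41.02, 25.6 and 29.97 (-1.45, adjusted p = 1.69e-06), and Esrra (ERRα) fell by 1.10.

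Genes of fuel use were mostly lower too. Of 24 genes of fatty acid uptake and oxidation, 17 (70.8%) were called lower and none higher (median -0.50), against 18.4% and 20.5% of all genes. With libraries scaled to the same sum, 10 were lower and 2 higher, beside 1183 and 5500 of all 13629 genes. Fabp3, the fatty acid carrier of the cytosol, stood at 54.1, 61.5, 91.7 and 80.4 in denervated and 194, 169, 274 and 378 in immobilized libraries (-1.76, adjusted p = 2.47e-06). Lpl, the lipase that frees fatty acids from blood lipids, fell by 1.37 and the uncoupling protein Ucp3 by 1.26. Cpt1b, the gate of mitochondrial import, stood at 69.96 to 104 in denervated, 164 to 249.6 in immobilized and 337 to 386 in basal libraries. Bdh1, the first enzyme of ketone body use, stood at 1.64, 3.56, 2.38 and 1.98 in denervated libraries and at 37.9, 28.03, 35.5 and 43.6 in immobilized ones, which overlapped the basal range (-3.47, adjusted p = 3.22e-10). Of 27 genes of glycolysis and glycogen, 20 (74.1%) were called lower and 1 (3.7%) higher (median -0.82), against the same shares of all genes. The counts were 14 and 2 with libraries scaled to the same sum (median -0.48) and 15 and 2 with quantile normalization (median -0.35). Eno3, the muscle enolase, stood at 724, 784, 832 and 918 in denervated, 3421, 3557, 3010.1 and 2964 in immobilized and 5455, 5609, 5678 and 6160.3 in basal libraries (-1.99, standard error 0.11, adjusted p = 5.38e-11). Tpi1 fell by 2.07, Pfkfb1 by 1.93 and Slc2a4, the insulin-regulated glucose transporter GLUT4, by 1.63. The 1 gene that rose was Gbe1, the glycogen branching enzyme (0.40, adjusted p = 0.0019), which was above basal muscle in both models.

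**Figure D4:**
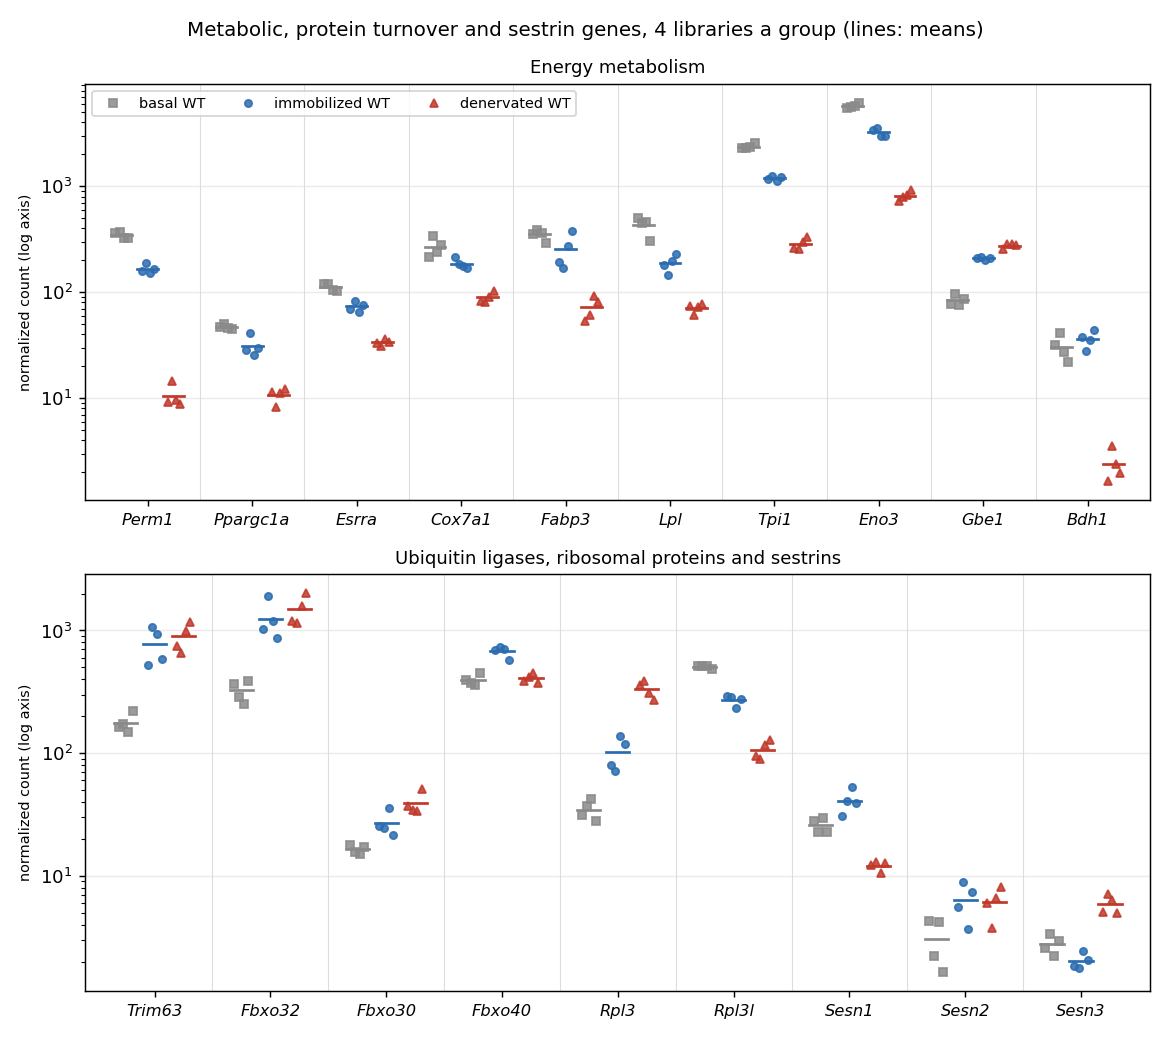
Normalized counts (vertical log axis) of genes of energy metabolism (upper panel) and of ubiquitin ligases, ribosomal proteins and sestrins (lower panel) in each of the 4 basal (gray squares), 4 immobilized (blue circles) and 4 denervated (red triangles) WT libraries of set 2, with lines at the means. Denervated libraries were lowest for Perm1, Tpi1, Eno3 and Sesn1, while Trim63 and Fbxo32 overlapped between the models.

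The atrophy ligases did not separate denervation from immobilization upward. Trim63 and Fbxo32 were chosen for naming after their values were seen, as the ligases best known from atrophy. Trim63 stood at 752, 659, 998 and 1175 in denervated and 521, 1069.8, 939 and 589.5 in immobilized libraries, all above the basal range of 147 to 222. The groups overlapped (0.23, standard error 0.28, adjusted p = 0.544). Fbxo32 stood at 1186, 1161, 1597 and 2009 in denervated and 1020.0, 1906, 1194 and 863 in immobilized libraries, again overlapping and above basal (0.28, standard error 0.40, adjusted p = 0.599). With quantile normalization both passed the test as higher in denervated muscle (log2 fold change 0.72 and 1.04, adjusted p = 0.0364 and 0.0472). Fbxo30 (MUSA1), a ligase that BMP signals restrain, was the 1 ligase called higher (0.53, adjusted p = 0.00994), and its call was lost without denervated replicate 4, its highest library (adjusted p = 0.0501). Of the 19 ligases tested, 9 (47.4%) were called lower, against 18.4% of all genes (median -0.27). They were led by Trim72 (-1.34), which seals membrane wounds, and Fbxo40 (-0.74), which targets an insulin signaling adaptor. With libraries scaled to the same sum, 5 were higher and 2 lower, beside 5500 and 1183 of all 13629 genes. Less the median of all genes, the median of the list was -0.26 as reported and -0.22 with that scaling.

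The proteasome and autophagy lists moved little on the scale as reported, and more of their genes were called higher with libraries scaled to the same sum. Of 47 proteasome subunits and assembly factors, 8 (17%) were called higher and 2 (4.26%) lower (median 0.09), against 20.5% and 18.4% of all genes. The number higher was 13 without immobilized replicate 2, 17 with quantile normalization and 35 with libraries scaled to the same sum. The assembly chaperones Psmg3 and Psmg2 (0.69 and 0.62) and the core subunit Psmb1 (0.49) led, and those lower were Psmb10 (-0.61), an immunoproteasome subunit, and Psme1 (-0.40), a regulator of it, whose calls were lost with libraries scaled to the same sum (adjusted p = 0.139 and 0.606). Of 34 core autophagy genes, 8 (23.5%) were called higher and 5 (14.7%) lower (median 0.14), and 22 and 2 with libraries scaled to the same sum. With that scaling, 5500 of all 13629 genes were higher and 1183 lower. Gabarapl1 (0.70, adjusted p = 0.00944) and Map1lc3a (0.64, adjusted p = 1.45e-05), which coat the autophagosome, led the increase.

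Many genes of protein synthesis rose in denervated against immobilized muscle. Of 83 cytosolic ribosomal protein genes, 46 were called higher, against 20.5% of all genes, and 1 lower (median 0.32). With libraries scaled to the same sum, 75 were higher and 1 lower. Reads of these genes can also match their many processed pseudogenes. The 1 that fell, Rpl3l, is the muscle form of Rpl3, and the pair moved in opposite directions. Rpl3 stood at 358, 385, 308 and 273 in denervated, 80.7, 72.03, 137 and 119 in immobilized and 31.1, 37.1, 42.2 and 28.02 in basal libraries (1.72, standard error 0.18, adjusted p = 2.15e-07). Rpl3l stood at 93.9, 89.5, 117 and 127 in denervated, 295, 285, 231 and 278 in immobilized and 511, 515, 515 and 487 in basal libraries (-1.35, standard error 0.10, adjusted p = 2.59e-09). For both genes the 3 groups did not overlap, with immobilized muscle between the others. Of 20 cytosolic aminoacyl-tRNA synthetases, 12 (60%) were called higher and 1 (5%) lower, against 20.5% and 18.4% of all genes. The median was 0.32, or 0.65 with 18 higher when libraries were scaled to the same sum. Dars (0.95, adjusted p = 3.77e-09) and Gars (0.64) led the increase. Eprs, the synthetase of glutamate and proline, was the 1 that fell, with 243, 302, 339.6 and 308 in denervated and 501, 482, 500.2 and 437 in immobilized libraries (-0.69, adjusted p = 4.14e-06), the immobilized level being above the basal range of 240.3 to 268. The ribosome of mitochondria did not share this direction. Of its 77 genes 20 (26%) were higher and 14 (18.2%) lower (median 0.10), near the 20.5% and 18.4% of all genes. With libraries scaled to the same sum, 47 were higher and 1 lower, beside 5500 and 1183 of all 13629 genes.

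The sestrins, stress-inducible regulators of AMPK and mTORC1 that are the subject of the study, took 3 different courses. Sesn1 (ENSMUSG00000038332, chr10:41809935-41908424) stood at 12.3, 12.9, 10.5 and 12.6 in denervated, 30.7, 41.02, 53.1 and 39.3 in immobilized and 28.1, 22.5, 29.7 and 22.8 in basal libraries. It was lower than basal muscle in every denervated library and higher in every immobilized one, so that the groups lay apart (-1.66, standard error 0.17, adjusted p = 1.96e-07). The rise from basal to immobilized muscle was 0.63 on the log2 scale (adjusted p = 0.00723 in the same limma fit). The paper, in contrast, reports that Sesn1 RNA and protein in TA fell after immobilization. Its figure covers several durations of immobilization, and its methods describe qPCR of TA RNA set against a reference gene. The values here are RNAseq of set 2 at 3 days. The paper also counts Sesn1 among genes dysregulated in every wasting data set it compared, its own RNAseq included. Why Sesn1 rose here and fell in the paper was not tested. Sesn3 stood at 5.07, 7.05, 6.39 and 4.99 in denervated and 1.84, 1.76, 2.43 and 2.04 in immobilized libraries (1.18, standard error 0.21, adjusted p = 0.000148). Sesn2 stood at 5.97, 3.76, 6.56 and 8.16 and 5.57, 8.92, 3.65 and 7.39, with overlapping groups and a log2 fold change of -0.04 (standard error 0.24, adjusted p = 0.916) whose sign turned with libraries scaled to the same sum (0.26). Of the 25 sestrin and GATOR network genes tested, 7 (28%) were called higher and 2 (8%) lower (median 0.15), against 20.5% and 18.4% of all genes. With that scaling, 18 were higher and 1 lower, beside 5500 and 1183 of all 13629 genes. Mtor rose by 0.81 (adjusted p = 3.58e-06), Nprl3, a GATOR1 subunit, by 0.74 and Gatsl2, which binds the GATOR2 complex, by 1.26. Beside Sesn1, Itfg2 of the KICSTOR complex was lower (-0.53, adjusted p = 0.00851), a call that was lost with that scaling (adjusted p = 0.309). Without immobilized replicate 3, 4 genes of the list were lower.

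Markers of other cell types of the muscle were compared as whole lists. Schwann cells wrap the nerve and lose contact with axons when it is cut. Pmp22, a protein of peripheral myelin, stood at 8.23, 7.04, 4.57 and 7.99 in denervated and 21.2, 12.2, 19.1 and 14.4 in immobilized libraries and fell by 1.15 (adjusted p = 0.000288). Ngfr, the neurotrophin receptor of Schwann cells without axons, was the 1 of 12 Schwann markers that rose, at 4.27, 3.69, 3.66 and 3.77 against 1.07, 0.855, 1.11 and 2.53 (1.07, adjusted p = 0.000319), and 5 of the 12 fell. The number higher was 2 without denervated replicate 3 or 4.

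Of 10 fibroblast markers, 7 (70%) were called lower, against 18.4% of all genes, and none higher. The median was -0.88, or -0.54 with 5 lower when libraries were scaled to the same sum. The summed level of the list was 525 to 808 in denervated and 967 to 1850.4 in immobilized libraries. Gsn fell by 0.92 (adjusted p = 0.000126), while Col3a1, at 197, 158, 96.6 and 131 against 259, 122, 216 and 661, did not pass the test (-0.88, adjusted p = 0.0795) except without immobilized replicate 2 (-1.24, adjusted p = 0.0133). Of 16 macrophage markers, 7 (43.8%) were called lower, against 18.4% of all genes, and none higher (median -1.15). The number lower fell to 1 without denervated replicate 4 or immobilized replicate 4, and to 2 without denervated replicate 3 or immobilized replicate 1. It was 1 with libraries scaled to the same sum. Summed, the list ranged over 67.8 to 194 in denervated and 184 to 354 in immobilized libraries. Lyz2 stood at 50.6, 24.1, 15.9 and 14.6 and 87.9, 49.4, 52.4 and 108, overlapping (-1.56, adjusted p = 0.0203), with no call without denervated replicate 3 or 4 or immobilized replicate 1 or 4 (adjusted p 0.0533 to 0.0656). Cd68, which was above the basal range of 0.655 to 2.59 in all 8 libraries, did not pass the test (0.40, adjusted p = 0.304). Of 10 endothelial markers, 5 (50%) were called lower, against 18.4% of all genes, and none higher (median -0.41), and 1 lower with libraries scaled to the same sum. Pecam1 fell by 0.56 (adjusted p = 0.00358) and Cdh5 did not pass the test (-0.31, adjusted p = 0.143) except without immobilized replicate 2 (-0.47, adjusted p = 0.0219), and its log2 fold change turned to 0.0265 with that scaling. Of 8 satellite cell and myoblast markers, 2 (25%) were called higher and 1 (12.5%) lower, against 20.5% and 18.4% of all genes. Of 6 neutrophil markers 1 (16.7%) was higher and none lower. Of 8 smooth muscle and pericyte markers 2 (25%) were lower, and of 7 adipocyte markers 1 (14.3%), with none higher. None of 5 red blood cell markers was called. None of the 9 markers of T, B and NK cells was in the table. The part of these cells in the other results was not tested.

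**Figure D5:**
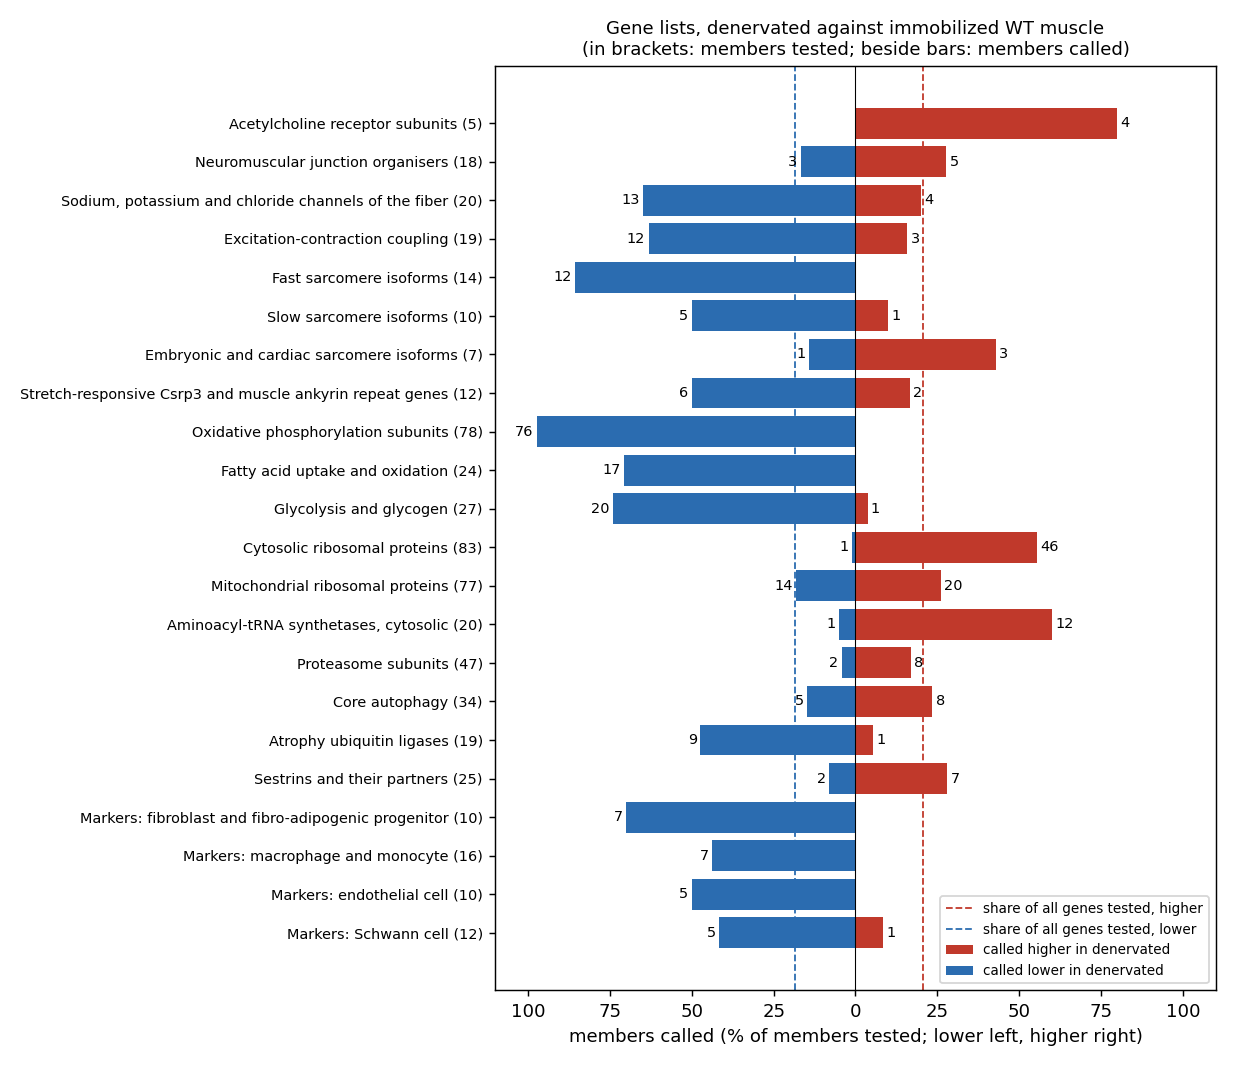
Share of the tested members of 22 gene lists (number in brackets) called higher (red, right) or lower (blue, left) in denervated than in immobilized WT muscle, in percent, with the number of members beside each bar. Dashed lines mark the shares over all genes tested, 20.5% higher and 18.4% lower. Of oxidative phosphorylation subunits 76 of 78 were lower and of fast isoforms 12 of 14, whereas 4 of 5 receptor subunits were higher.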

How the data were processed

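RNAseq of TA muscle was analysed for 8 libraries of set 2, 4 of WT Denervated and 4 of WT Immobilized mice, grouped by the sample labels. The other 12 libraries of set 2 (4 basal WT, 4 basal and 4 immobilized Sesn1 KO) added to the estimate of the spread. Per the labels and the study's methods, the authors isolated RNA with QIAzol followed by RNeasy columns and built libraries with NEBNext Ultra reagents for an Illumina HiSeq instrument. Cutadapt (1.7.1) served for trimming, RSEM (1.2.20) for quantification on the GRCm38 transcriptome and limma for normalization, and the submitters' processing notes also list FastQC and edgeR. The deposited signal values are normalized counts per gene (13809 genes, of which 103 have no symbol), not log-transformed. No value is 0, the number of reads is unknown, and how the sets were combined is not given in the sources used here.

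The 13629 genes that reached 1 in any of the 20 libraries were tested. Values were transformed as log2(value + 1) and fitted in limma 3.58.1 (R 4.3.3) with 1 coefficient for each of the 5 groups and a mean-variance trend in eBayes. The p-values are two-sided and were adjusted over all tested genes by the Benjamini-Hochberg method. Thresholds of 0.05 for the adjusted p and 0.25 for the log2 fold change follow the study's methods. The fit was tested on simulated data. Python 3.11.15 with pandas 2.3.3, numpy 2.4.6 and matplotlib 3.10.9 made tables and plots. Positions come from GENCODE M21, which held 13715 of the genes (99.3%), and promoters from RefSeq on GRCm38.p6. The deviations of same-numbered libraries correlated at -0.01, -0.02, -0.06 and -0.11, so replicate numbers were not taken as pairs. Libraries are treated as separate mice, which the labels do not state.

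The comparison, the gene lists and their members were chosen with earlier results of these data known. Lists are therefore described by counts and medians and were not tested as sets. Genes were named if they were 1 of the 5 markers of the comparison or a sestrin, among the 15 called genes of largest change in each direction without overlap between the groups (unnamed genes, Gm and Rik models and pseudogenes aside), in a list of at most 14 genes, among the 4 called genes of largest change in each direction of a longer list, or among the 2 most abundant of a marker list. Not every gene so selected is printed, some of them are not reported here, and genes outside the rule are marked as chosen after their values were seen or named as the remaining members of a count. Alternatives were another filter, pseudocount, scaling, variance model, set of libraries and fold threshold, a replicate block, and leaving out each library in turn.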

Additional observations from a re-analysis of the deposited data

Results flagged for a closer look

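For 10 of the 290 groups of 4 libraries tested over the named genes, 1 library stood apart from the other 3 by Dixon's test at the 95% level, which sets its gap to the nearest library against the range of the group. Chance alone does so in about 1 of 20 groups. In immobilized muscle, a single library was highest for Musk (25.6 normalized counts, the others 17.1 to 17.6), Gdf5 (3.12, the others 0.666 to 0.957), Plk2 (18.0, the others 11.3 to 12.2) and Ngfr (2.53, the others 0.855 to 1.11). A single immobilized library was lowest for Maf (87.0, the others 133 to 138), Kcnn3 (5.43, the others 7.10 to 7.44) and Ucp3 (94.3, the others 136 to 142). In denervated muscle, a single library was highest for Myl3 (15.5, the others 9.56 to 9.99), Perm1 (14.5, the others 8.74 to 9.55) and Fbxo30 (51.2, the others 33.9 to 36.9). Each of these genes kept the direction of its difference without the library named, and Fbxo30 lost its call.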

How the results depend on the processing

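The number of reads behind a value is unknown and the table shows no sham surgery, so counting error and the effect of the operation cannot be given. Library sums differed between the groups without overlap, and a choice of scale therefore bears on every direction of modest size. With each library scaled to the same sum, the number of called genes rose from 5297 to 6683, of which 5500 were higher and 1183 lower (82.3% higher, against 52.7% as reported), and 3972 of the reported calls were made in the same direction. At an absolute log2 fold change of 1 the calls were 933 in all, 396 higher and 537 lower. The other alternatives, which changed the filter, the pseudocount, the variance model or the libraries in the fit or used quantile normalization or median centring, gave 4829 to 5322 calls. Leaving out 1 library in turn gave 4585 to 5082, with 4485 to 4710 of the reported calls in the same direction. Among named genes, the log2 fold change took the opposite sign for Trp53inp2 (0.0106), Sesn2 (0.258), Ankrd2 (0.0026) and Cdh5 (0.0265) with libraries scaled to the same sum, for Ankrd2 with quantile normalization (0.0806) and for Actn3 with median centring (-0.0142). Without 1 library in turn, it ranged from -0.0789 to 0.0800 for Actn3 and from -0.24 to 0.14 for Sesn2. The cause was not tested.

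Replicate numbers do not pair the libraries by the labels, and no denervated library correlated best with its own number. With the replicate number as a block, 5209 genes were called over set 2 and 4622 over the 8 libraries, of which 5122 and 4442 were reported calls in the same direction.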

Other observations

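Genes that answer to glucocorticoids, hormones of stress that promote muscle wasting, differed in both directions, and more of them were lower in denervated muscle. Zbtb16 (PLZF), a direct target of the receptor, stood at 11.2, 9.46, 8.95 and 9.66 normalized counts in denervated and 59.5, 67.8, 72.1 and 45.3 in immobilized libraries, the latter overlapping the basal 46.8, 50.5, 39.5 and 79.7 (-2.51, standard error 0.16, adjusted p = 3.19e-10 by limma). Fkbp5, which tunes the receptor, stood at 11.7, 12.2, 10.7 and 8.37 against 25.5, 38.5, 37.9 and 35.99 (-1.59, adjusted p = 2.48e-05), and Cebpd fell by 1.36 (adjusted p = 0.00885). The groups did not overlap in these 3 genes, as in 2044 of the 2508 genes called lower. Of 20 genes of this list, which also holds the metallothioneins, 3 (15%) were called higher and 7 (35%) lower. Of all genes, 20.5% were higher and 18.4% lower. With libraries scaled to the same sum, 4 of the list were lower.

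Chaperones differed by member. Hspb8, a small heat shock protein that helps remove damaged filaments, stood at 2156, 2581, 1929 and 2039 in denervated, 779, 718, 868 and 632 in immobilized and 278, 258, 277 and 377 in basal libraries (1.54, adjusted p = 6.34e-06). Hspb6, its relative, stood at 320.0, 359.5, 464 and 421 in denervated and 1470.4, 1351, 1682 and 1614 in immobilized libraries, on opposite sides of the basal range of 682 to 746 (-1.97, adjusted p = 7e-10). Hsph1 rose by 1.02. Of 14 members 4 (28.6%) were called higher and 4 (28.6%) lower, and 7 and 2 with libraries scaled to the same sum. Among genes of the ATF4 response, 4 of 19 (21.1%) were higher and 5 (26.3%) lower. Of all genes, 20.5% were higher and 18.4% lower. Slc7a5, the leucine transporter, stood at 14.2, 20.1, 13.4 and 12.2 in denervated and 3.56, 2.85, 3.93 and 2.22 in immobilized libraries (1.94, adjusted p = 2.57e-07), while Mthfd2, the folate enzyme of mitochondria, fell by 0.87 (adjusted p = 0.000993) and Trib3 by 0.98 (adjusted p = 0.00483). Both of the latter were above the basal range in every immobilized library.

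Among the genes of largest decrease were also Arhgap20, a GTPase activator, at 6.39, 8.31, 10.03 and 8.65 in denervated against 53.9, 56.4, 77.2 and 63.99 in immobilized libraries (-2.77), the ligase adaptor Asb12 (-2.67), the membrane protein Lsmem1 (-2.95) and Adamts8, a matrix protease. Adamts8 stood at 3.79, 2.71, 6.06 and 4.799 in denervated and 52.7, 28.4, 19.1 and 38.3 in immobilized libraries, the latter all above the basal range of 3.000 to 7.37 (-2.69, adjusted p = 0.000529). Lox, which cross-links collagen, was likewise above its basal range in every immobilized library, with 8.11, 12.03, 9.51 and 5.13 against 29.4, 15.3, 40.1 and 41.2 (-1.70, adjusted p = 0.00711). Of 25 collagen and matrix genes 10 (40%) were called lower and none higher, against 18.4% and 20.5% of all genes. Without denervated replicate 3 or 4 or immobilized replicate 4, 6 were lower, and 5 were lower with libraries scaled to the same sum. Rrm2, a subunit of ribonucleotide reductase, stood at 9.05, 10.5, 6.59 and 8.39 in denervated and 0.582, 1.32, 0.676 and 1.69 in immobilized libraries (2.24, adjusted p = 9.77e-05). Of 35 genes of the cell cycle and DNA replication, 5 (14.3%) were called higher and 1 (2.86%) lower, against 20.5% and 18.4% of all genes. The number higher was 2 without denervated replicate 1 or 2, 3 without immobilized replicate 2 and 8 without immobilized replicate 4. With libraries scaled to the same sum, 15 were higher and none lower, beside 5500 higher and 1183 lower of all 13629 genes.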
